A study of Drosophila melanogaster with 12 samples.

Results

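Mirtrons are miRNAs made from short introns. The series examined here covers the hairpins mir-1003 to mir-1017 of Drosophila melanogaster, chosen by their hairpin number alone, without use of any measured value. They accounted for 24 of the 408 rows of the deposited table, where a row is one mature miRNA at one hairpin, and for 15 of its 238 hairpins. Of the 24 rows, 9 were 5p arms and 15 were 3p arms, and both arms were listed for 9 hairpins. No row repeated another one, and no mature miRNA of the series was listed at a hairpin outside it.

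The study sequenced small RNAs pulled down with AGO1, the main Argonaute protein for fly miRNAs, from heads of Canton-S flies, a wild-type laboratory strain that served for every library. Flies were entrained at 18°C, at 25°C or at 29°C in daily cycles with light and dark phases of equal length. For its crosses, the study describes raising at 25°C, after which new adults stayed there or were moved to 18°C or 29°C. Heads were taken at ZT3, ZT9, ZT15 and ZT21 (Zeitgeber time, in hours after lights on), with 1 library for each temperature and time point. The study asked whether miRNA regulation of the clock gene timeless depends on temperature. The libraries of a temperature were taken as its replicates, as the study did. With n = 4, their spread includes time of day. Age and sex of the flies were not given in the sources used here, and many heads were pooled in a library. Reads per library ranged from 4423511 (29°C, ZT21) to 16840372 (25°C, ZT15). A floor of 3 reads corresponded to values from 1.97 to 7.65. As a check of the tissue, miR-124-3p, a miRNA of the nervous system picked for this purpose after its values were seen, had 57 to 353 reads in every library. The 29°C libraries held less of it than those of 18°C, by 0.72 on the log2 scale (SE 0.26, limma adjusted p 0.039), and likewise less miR-124-5p, by 0.32 (SE 0.12, adjusted p 0.049). Their part in the results below was not tested. In such bulk samples, fewer cells of a type and less RNA per cell cannot be told apart, and neither can production and loading into AGO1.

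Most animal miRNA hairpins are cut out of longer transcripts by Drosha and its partner Pasha. A mirtron skips that step. The spliceosome defines both of its ends, the spliced lariat is debranched, the linear intron folds into a hairpin, and Dicer-1 cuts the hairpin into a 5p arm that begins at or near the splice donor and a 3p arm that ends at or near the splice acceptor. In flies, the uridylyltransferase Tailor adds uridines to the 3′ ends of mirtron hairpins, which hinders their cutting by Dicer. In a tailed mirtron, one end of the hairpin is a splice site and the other is exposed by trimming of the rest of the intron, and mir-1017 is the fly example, trimmed by the RNA exosome.

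The label was first checked against gene annotation (Ensembl, build BDGP6.54). In 14 of the 15 hairpins both ends coincided with the ends of an annotated intron of a protein-coding gene on the same strand, with 0 bases of difference. These introns were 54 to 71 bases long, with a median of 61. The exception was mir-1017, whose 5′ end lay at the donor site of a 169-base intron of nAChRalpha2, a subunit of the nicotinic acetylcholine receptor, and whose 3′ end lay 98 bases before the end of that intron (3R:24488612-24488682, plus strand). Among the other 219 hairpins found in the annotation, 18 (8.22%) filled an intron within 5 bases at each end, 17 of them with 0 bases of difference. All 15 introns separated coding parts of their host gene, in the case of mir-1003 in some transcripts and otherwise in all of them.

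The mature arms sat at the splice sites as well. Of the 14 annotated 3p arms of the intron-filling hairpins, 11 ended at the last base of the intron. The others ended 1 base (miR-1007-3p and miR-1008-3p) or 3 bases (miR-1013-3p) before it. Of their 9 annotated 5p arms, 3 started at the first intron base, 5 at the second, and miR-1007-5p started 4 bases in. By contrast, miR-1017-3p ended 101 bases before the acceptor site. The mature arms of the intron-filling hairpins were 20 to 25 bases long.

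**Figure D1:**
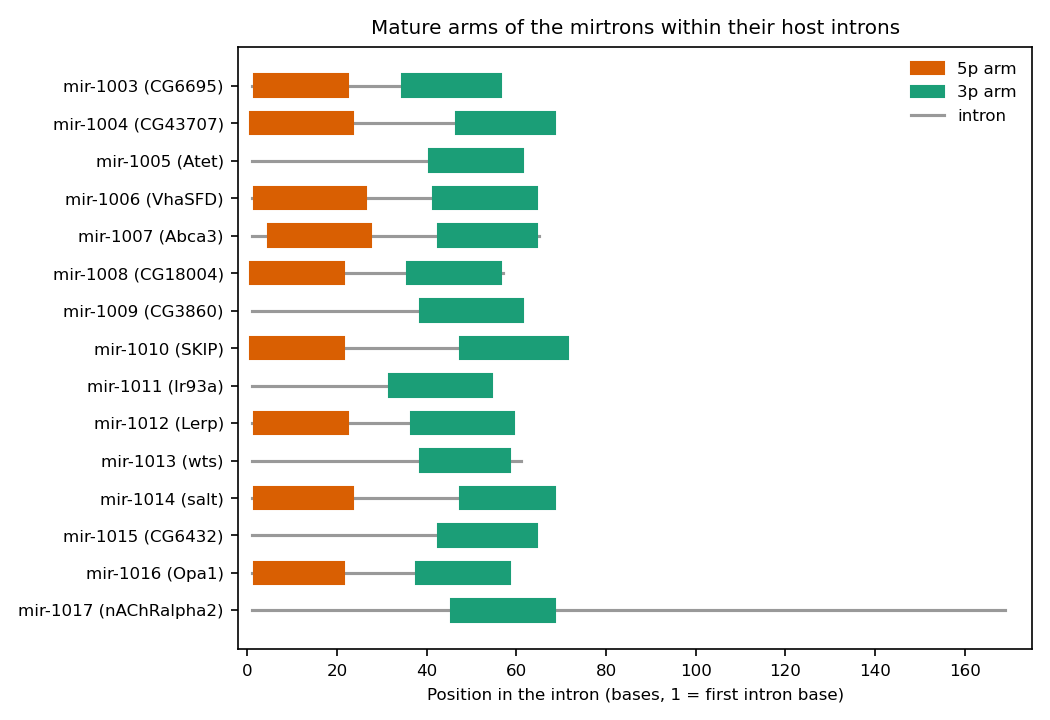
Mature arms along the host intron of each mirtron, with the position counted in bases from the first intron base; grey lines are introns, orange boxes 5p arms and green boxes 3p arms, and the host gene is in parentheses. The 14 intron-filling hairpins lie in introns of 54 to 71 bases with the arms listed for them at or near the intron ends (both arms for 9 of them and the 3p arm alone for 5), whereas the 3p arm of mir-1017 ends 101 bases before the end of a 169-base intron.

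The host genes have varied roles. SKIP, which encodes a protein that interacts with the Shal potassium channel, hosts mir-1010 (3R:22292879-22292949, plus strand). Lerp, a receptor for lysosomal enzymes, hosts mir-1012 (3R:26861349-26861407, minus strand), and wts, the Warts kinase of the Hippo growth control pathway, hosts mir-1013 (3R:30791636-30791696, minus strand). VhaSFD, a subunit of the vacuolar proton pump, hosts mir-1006 (2L:16724795-16724858, minus strand). Ir93a, a receptor of the ionotropic family used in sensing temperature and humidity, hosts mir-1011 (3R:20853305-20853358, minus strand). The ABC transporter genes Atet and Abca3 host mir-1005 (2L:4343696-4343756, plus strand) and mir-1007 (X:21296385-21296449, minus strand), and Opa1, a GTPase of mitochondrial fusion, hosts mir-1016 on chromosome arm 2R. The hosts of mir-1003 (CG6695, 3R:24658605-24658660, plus strand), mir-1004 (CG43707, 2L:3767621-3767688, plus strand), mir-1008 (CG18004, 2R), mir-1009 (CG3860, 2R), mir-1014 (salt, 3R:31753524-31753591, minus strand) and mir-1015 (CG6432, 3R:24339232-24339295, plus strand) are given without a role. The levels of the host transcripts were not analysed here.

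The series made up a small share of AGO1-bound miRNA, and mir-1010 made up most of that share. The 15 hairpins together had 0.291% to 0.399% of the reads of a library. Of their 480422 reads over the 12 libraries, 64.4% were miR-1010-3p, 10.9% miR-1017-3p, 5.17% miR-1012-5p, 3.94% miR-1004-5p and 3.52% miR-1004-3p, and 88.2% came from 3p arms. The order of arms by reads is a description, since ligation and PCR preferences of single sequences were not corrected. Other intron-filling hairpins were mostly near the floor. Their 23 rows had a median of 2.08 reads per library, against 219 for the 24 mirtron rows and 26.3 for all 403 rows kept after removal of repeats. Of the 23, 4 had a mean of at least 10 reads, and the highest mean was 2510 reads.

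Of the 24 rows, 18 had a mean of at least 10 reads per library and 6 were near the floor. The near-floor row with the most reads was miR-1011-3p, with 2 to 19 reads per library and a mean of 9.75. miR-1005-3p had 0 to 6 reads per library, with 14 reads over the 18°C libraries, 9 over those at 25°C and 4 over those at 29°C. miR-1008-3p had 0 to 4 reads and miR-1014-5p 0 to 3 reads, with 9 of the 12 libraries at 0 for the latter. The only reads of miR-1014-3p were 2 in the 29°C ZT21 library, and the only read of miR-1007-5p was 1 in the 25°C ZT21 library. These last 5 rows had too few reads for the main test of temperatures described below, so a difference was not tested there and no fold change is given. A count of 0 allows up to 3 reads. These limits and all floors cover counting error only.

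**Figure D2:**
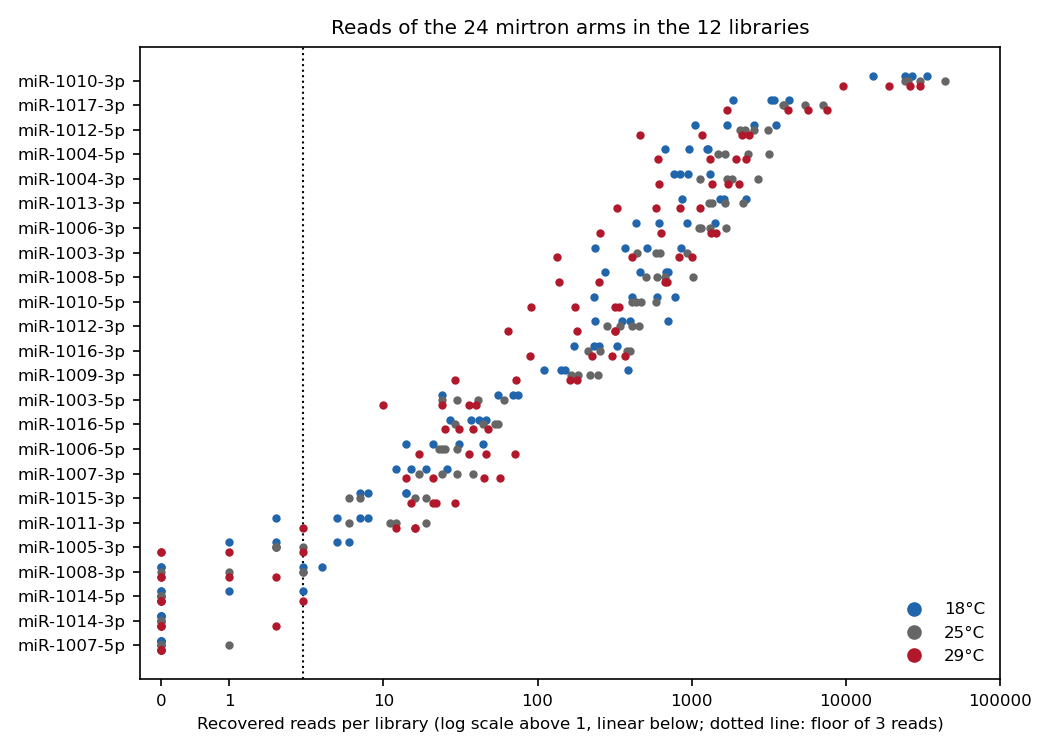
Recovered reads of each of the 24 mirtron arms in each of the 12 libraries (points, coloured by temperature), on an axis that is logarithmic above 1 read; the dotted line is the floor of 3 reads. The arms span from 1 read in all (miR-1007-5p) to 9620 to 44139 reads per library (miR-1010-3p), and 6 of them have a mean under 10 reads.

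The filter on low reads left 19 rows of 13 hairpins, the 18 above and miR-1011-3p. A row with reads at one temperature only could pass it, so counts over the 19 do not describe all 24. In miR-1011-3p, 0 of the 4 libraries at 18°C reached the read limit of the filter, against 3 at 25°C and 3 at 29°C, and in miR-1015-3p the numbers were 2, 2 and 4. The other 17 reached it in every library. Differences were tested with limma on log2(value + 1) over all 244 miRNAs that passed, and all adjusted p-values are Benjamini-Hochberg values over those 244. A difference is written as the log2 fold change of the first temperature over the second. Calls needed an adjusted p below 0.05 together with a log2 fold change beyond 1 in either direction, the study's own criteria. The 3 comparisons share libraries and are not independent of each other. In the sentences below, the values of a temperature are in the order ZT3, ZT9, ZT15 and ZT21, and means are given ± SD with n = 4.

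Between 18°C and 29°C, 3 of the 19 mirtron rows tested were called, where 16% of all 244 miRNAs were. All 3 were lower at 18°C, as were 6.15% of all miRNAs tested. The 3 include miR-1011-3p, which passed the filter without any 18°C library at the read limit. Its lower level at 18°C is tied to how it entered the test and is no support for a direction. By the adjusted p alone, 10 of the 19 differed, where 39.8% of all miRNAs did. Of these, 7 were lower and 3 higher at 18°C, where 46 of all 244 miRNAs were lower and 51 higher. The median log2 fold change was -0.32 over the 19 rows and 0.03 over all 244. In 9 of the 19 the libraries of the 2 temperatures did not overlap, and over all 244 this was so for 38.9%. Since miR-1011-3p is also among the 10, the 7 and the 9, setting these counts against all miRNAs is a description. The 3 called rows (miR-1007-3p, miR-1011-3p and miR-1015-3p) were those with the fewest reads of the 19, between 9.75 and 26.5 per library on average. When the test was limited to miRNAs with a mean of 100 reads or more, 0 mirtron rows were called, where 18 of 162 miRNAs were. The 3 called rows had fewer reads and could not enter that test. Without the 18°C ZT9 library the count was also 3, with miR-1004-3p (-1.04) in place of miR-1011-3p.

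**Figure D3:**
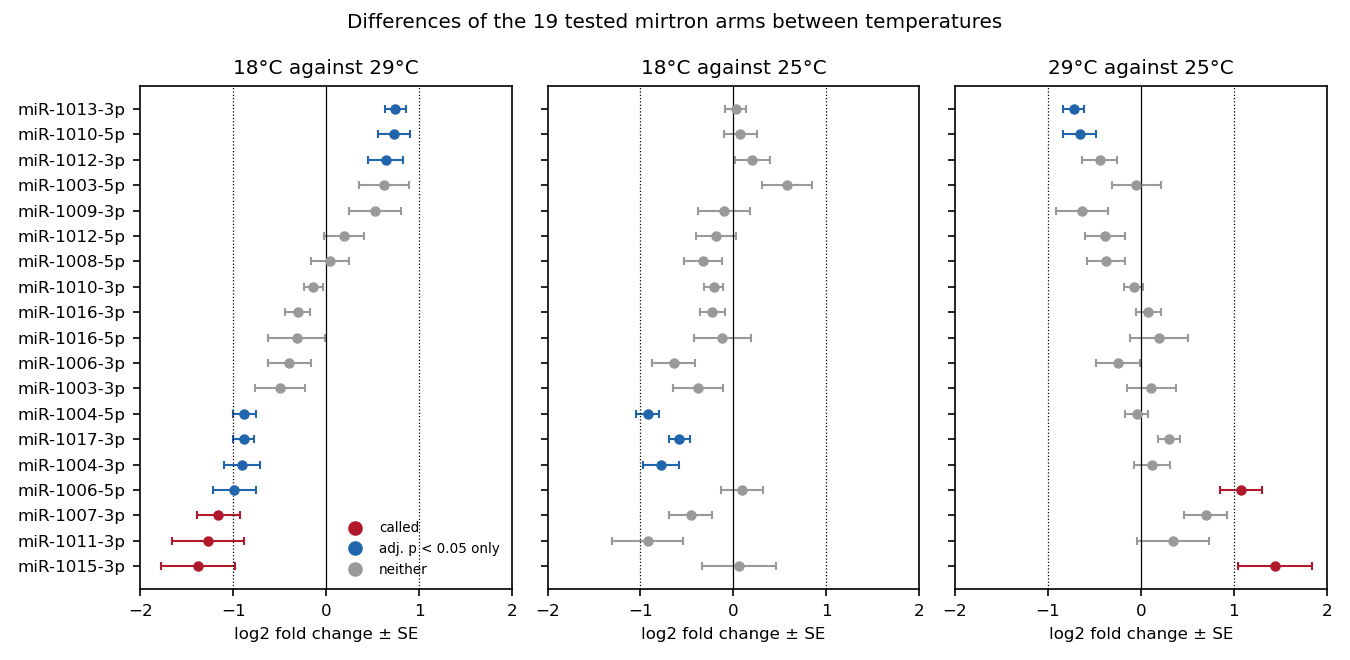
Log2 fold changes on the log2(value + 1) scale ± SE of the 19 tested mirtron arms in the 3 comparisons, ordered by the difference between 18°C and 29°C; dotted lines mark 1 and -1. Red points are called (3, 0 and 2 from left to right), blue points have an adjusted p under 0.05 and a smaller change, and grey points have neither.

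The abundant arms that were lower in the cold came from mir-1017 and mir-1004. For miR-1017-3p, the arm of the tailed mirtron, the values were 3058, 2564, 2777 and 3062 at 18°C, 4308, 4014, 4697 and 4130.1 at 25°C, and 5825, 5939, 5176 and 4354 at 29°C. The 18°C libraries were all below those at 25°C and at 29°C, and the ranges at 25°C and 29°C overlapped. The means were 2865 ± 241 at 18°C against 4287 ± 299 at 25°C and 5324 ± 728 at 29°C, so the mean was 1.86-fold higher at 29°C than at 18°C. The difference was below the limit on the fold change and larger than the spread between libraries, both against 29°C (log2 fold change -0.89, SE 0.12, adjusted p 4.45e-05) and against 25°C (-0.58, SE 0.12, adjusted p 0.0034). Between 29°C and 25°C it did not pass (0.30, SE 0.12, adjusted p 0.0973).

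Both arms of mir-1004 were lower at 18°C. The miR-1004-5p values were 859.8, 927, 1073 and 899.8 at 18°C, 1784, 1519, 2096 and 1755 at 25°C, and 1748, 1863, 1749 and 1546 at 29°C. Every 18°C library was below every other library, and the 25°C and 29°C libraries overlapped widely. The mean was 939.9 ± 93.2 at 18°C against 1789 ± 237 at 25°C and 1727 ± 132 at 29°C, giving a log2 fold change of -0.88, SE 0.12, adjusted p 6.61e-05 against 29°C and of -0.92, SE 0.12, adjusted p 0.000303 against 25°C. The miR-1004-3p values were 683, 1169, 799 and 937 at 18°C, 1224, 1729.7, 1201 and 2049 at 25°C, and 1568, 1911, 1546 and 1574 at 29°C. Here too the 18°C libraries lay below all others, the highest of them (1169, at ZT9) just under the lowest at 25°C (1201, at ZT15). The log2 fold change was -0.90, SE 0.19, adjusted p 0.00186 against 29°C and -0.78, SE 0.19, adjusted p 0.0126 against 25°C. Of the 2 arms, neither differed between 29°C and 25°C (adjusted p 0.867 for 5p and 0.769 for 3p).

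The 3 called arms had few reads, at most 57 in a library. For miR-1007-3p the values were 16.96, 16.7, 12.7 and 18.5 at 18°C, 18.4, 24.5, 19.7 and 28.9 at 25°C, and 44.1, 29.6, 40.7 and 35.7 at 29°C. All 29°C libraries were above all libraries at 18°C and 25°C. There were 72 reads of it over the 18°C libraries and 137 over those at 29°C, and the log2 fold change was -1.16, SE 0.23, adjusted p 0.00126. Against 25°C it passed the threshold neither at 18°C (-0.46, SE 0.23, adjusted p 0.185) nor at 29°C (0.70, SE 0.23, adjusted p 0.0707).

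The miR-1015-3p values were 12.5, 19.5, 5.95 and 5.68 at 18°C, 6.49, 7.15, 12.5 and 12.2 at 25°C, and 22.4, 31.03, 19.01 and 38.3 at 29°C. The highest 18°C library (19.5, at ZT9, 14 reads) lay just above the lowest at 29°C (19.01, at ZT15, 21 reads), and the 25°C libraries were all below those at 29°C. The log2 fold change was -1.38, SE 0.40, adjusted p 0.0131 for 18°C against 29°C, and 1.44, SE 0.40, adjusted p 0.026 for 29°C against 25°C. For 18°C against 25°C it was 0.06, SE 0.40, adjusted p 0.928. The call against 25°C was lost when the ZT3 or the ZT9 library of 25°C, or the ZT3, ZT9 or ZT21 library of 29°C, was left out, with adjusted p up to 0.0963. With the time point as a block over all 12 libraries its adjusted p was 0.0574, so the call was lost, and with that block over the 8 libraries of 25°C and 29°C alone it was 0.0159.

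For miR-1011-3p the values were 7.14, 2.78, 4.25 and 4.97 at 18°C, 6.49, 11.2, 12.5 and 9.12 at 25°C, and 12.4, 22.6, 10.9 and 7.65 at 29°C. The 4 libraries at 18°C had 8, 2, 5 and 7 reads, and the highest of them (7.14) was just below the lowest at 29°C (7.65, which stood for 3 reads in the shallowest library). The log2 fold change was -1.27, SE 0.39, adjusted p 0.0171 between 18°C and 29°C. Since this arm passed the filter only through libraries of 25°C and 29°C, its lower level at 18°C is given as a description and not as support. In a fit without the filter, over all 403 rows, its adjusted p was 0.0208. The call was lost without the ZT9 library of 18°C (adjusted p 0.0511) or without that of 29°C (-0.996, adjusted p 0.0664).

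The 5p arm of mir-1006 was higher in the warmth. The miR-1006-5p values were 18.7, 19.5, 26.3 and 31.2 at 18°C, 25.95, 23.5, 19.7 and 18.99 at 25°C, and 54.9, 50.8, 41.6 and 43.4 at 29°C. All 29°C libraries were above all others, while 18°C and 25°C overlapped. The log2 fold change was 1.08, SE 0.23, adjusted p 0.00835 between 29°C and 25°C, which was called, and -0.99, SE 0.23, adjusted p 0.00299 between 18°C and 29°C, just under the limit on the fold change. With a pseudocount of 0.5 in place of 1 the latter was -1.001 and was called, as it was without the ZT15 or the ZT21 library of 18°C or of 29°C (-1.04, -1.12, -1.05 and -1.03 in that order). Its partner miR-1006-3p had 545, 602, 787 and 1013 at 18°C, 1427, 1182, 1093 and 845 at 25°C, and 1108, 897, 1215 and 650.5 at 29°C. These ranges overlapped between all temperatures, and no difference passed the threshold (adjusted p 0.196 for 18°C against 29°C, 0.0687 for 18°C against 25°C, 0.604 for 29°C against 25°C). Without the 29°C ZT21 library, the shallowest, it was lower at 18°C than at 29°C (-0.57, adjusted p 0.0443).

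The 3 arms that were higher at 18°C than at 29°C were miR-1013-3p, miR-1010-5p and miR-1012-3p. The miR-1013-3p values were 1358, 1210.3, 1377 and 1611 at 18°C, 1468, 1315, 1411 and 1251 at 25°C, and 876, 824, 762 and 834 at 29°C. The 29°C libraries were all below the rest, and the ranges at 18°C and 25°C overlapped. The means were 1389 ± 166 at 18°C against 1361 ± 96.9 at 25°C and 824 ± 46.8 at 29°C, with a log2 fold change of 0.75, SE 0.11, adjusted p 0.00012 between 18°C and 29°C and of -0.72, SE 0.11, adjusted p 0.000798 between 29°C and 25°C. For miR-1010-5p the values were 369, 324, 505 and 549.7 at 18°C, 469, 417, 388 and 356 at 25°C, and 245, 248, 306 and 232 at 29°C. Again only the 29°C libraries stood apart, all below those at 18°C and 25°C. Its log2 fold change was 0.73, SE 0.18, adjusted p 0.00387 between 18°C and 29°C and -0.66, SE 0.18, adjusted p 0.0214 between 29°C and 25°C. The miR-1012-3p values were 316, 327, 340.0 and 500.0 at 18°C, 307, 348, 299 and 314 at 25°C, and 246, 252, 289 and 163 at 29°C. The 29°C libraries were below all others, and the 18°C ZT21 library was above the other three of its temperature. The log2 fold change was 0.64, SE 0.19, adjusted p 0.0139 between 18°C and 29°C, and against 25°C neither temperature passed (adjusted p 0.499 at 18°C and 0.152 at 29°C).

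**Figure D4:**
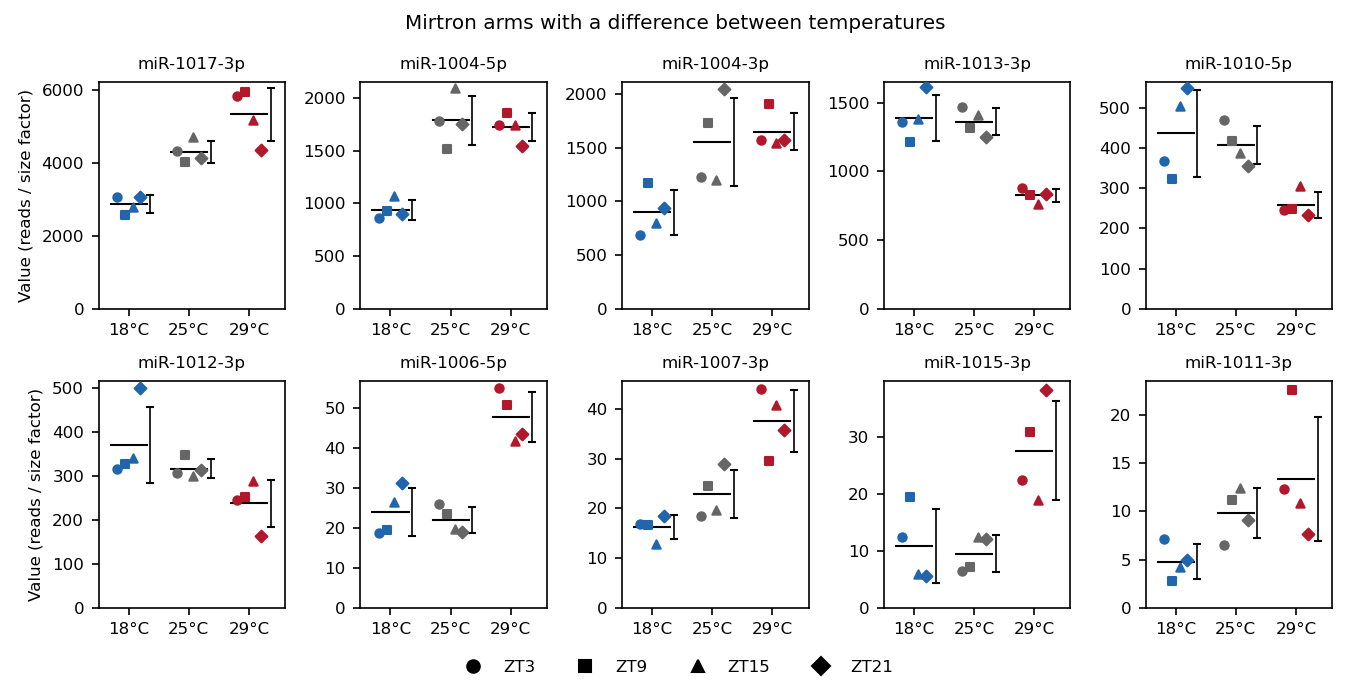
Deposited values (reads divided by the size factor of the library) of the 10 mirtron arms with an adjusted p under 0.05 in a comparison, by temperature, with 1 point per library and its shape giving the time point; horizontal lines are means and bars are ± SD (n = 4). The 18°C libraries lie lowest for miR-1017-3p and both arms of mir-1004, and the 29°C libraries lie lowest for miR-1013-3p, miR-1010-5p and miR-1012-3p and highest for miR-1006-5p and miR-1007-3p.

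The most abundant arm of the series did not pass in any comparison. The miR-1010-3p values were 21722, 20976, 22998 and 23981 at 18°C, 26152, 26029.9, 28961 and 22973 at 25°C, and 23503, 26757, 23704 and 24540.2 at 29°C. The ranges overlapped between all temperatures. The means were 22419 ± 1335 at 18°C against 26029 ± 2446 at 25°C and 24626 ± 1490.2 at 29°C, and the log2 fold change was -0.14, SE 0.10, adjusted p 0.294 for 18°C against 29°C. It was -0.21, SE 0.10, adjusted p 0.146 for 18°C against 25°C, and -0.08, SE 0.10, adjusted p 0.703 for 29°C against 25°C.

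With all libraries, the 7 remaining tested arms passed in no comparison either. The miR-1012-5p values were 1514, 1470.1, 2154 and 2488 at 18°C, 2759, 2272, 2039 and 1559.5 at 25°C, and 1826, 1654, 1926 and 1186 at 29°C, and the libraries of the 3 temperatures overlapped. The 18°C ZT21 and the 25°C ZT3 library were the highest of their groups. For miR-1003-3p the values were 328, 329, 439 and 609 at 18°C, 635, 450.3, 615 and 474 at 25°C, and 779.7, 575, 751 and 339 at 29°C, and for its partner miR-1003-5p they were 49.1, 33.3, 63.7 and 49.001 at 18°C, 44.3, 24.5, 40.02 and 22.8 at 25°C, and 30.9, 33.9, 32.6 and 25.5 at 29°C. Every range of both arms overlapped with every other, and the log2 fold changes of the 2 arms between 18°C and 29°C had opposite signs (-0.50, SE 0.27, adjusted p 0.152 for 3p, and 0.62, SE 0.27, adjusted p 0.0752 for 5p). The miR-1008-5p values were 412, 381, 593 and 485 at 18°C, 642, 513, 671 and 508 at 25°C, and 519.8, 354, 624 and 349 at 29°C, again with overlap between all temperatures. miR-1009-3p had 127, 153, 127 and 275 at 18°C, 238, 169.5, 163 and 138 at 25°C, and 138, 103, 147 and 73.98 at 29°C, with its highest value in the 18°C ZT21 library. The miR-1016-3p values were 206, 239, 212 and 232 at 18°C, 231, 261, 262 and 289 at 25°C, and 284, 316, 277 and 229.6 at 29°C, and those of miR-1016-5p were 24.1, 58.4, 31.4 and 32.7 at 18°C, 47.6, 29.6, 36.1 and 40.3 at 25°C, and 37.1, 53.6, 28.1 and 63.8 at 29°C. Both arms overlapped between all temperatures. Over these 7 arms the log2 fold change between 18°C and 29°C ranged from -0.50 for miR-1003-3p to 0.62 for miR-1003-5p, with adjusted p from 0.0752 to 0.922. Without the 29°C ZT21 library the difference passed at the adjusted p alone for miR-1003-3p (-0.76, adjusted p 0.0103) and for miR-1016-3p (-0.39, adjusted p 0.0321), and without the 18°C ZT9 library it did so for miR-1003-5p (0.79, adjusted p 0.0336).

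Between 18°C and 25°C, 0 of the 19 rows were called, where 4.1% of all miRNAs were. By the adjusted p alone 3 differed (19.7% of all miRNAs), the 2 arms of mir-1004 and miR-1017-3p. All of them were lower at 18°C, as were 8.61% of all miRNAs. The count was 0 with edgeR and with DESeq2 as well, and 6 of the 19 had an unadjusted p under 0.05 in limma. The share of all miRNAs at that unadjusted limit was not counted, so these 6 are not read as a result about the series. Between 29°C and 25°C, 2 rows were called, miR-1006-5p and miR-1015-3p, where 3.28% of all miRNAs were called. Both were higher at 29°C (2.05% of all miRNAs). By the adjusted p alone 4 of the 19 differed (11.9% of all miRNAs), the same 2 higher (4.51%), and miR-1010-5p and miR-1013-3p lower at 29°C (7.38%). The adjusted p of miR-1010-5p rose to 0.0831 at most when 1 library was left out. The libraries did not overlap for 3 of the 19 between 18°C and 25°C (24.6% of all miRNAs) and for 6 between 29°C and 25°C (16.8%).

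The 10 arms that differed between 18°C and 29°C were thus spread over the temperature range in different ways. The share of the log2 difference that lay between 18°C and 25°C was 105% for miR-1004-5p and 86.5% for miR-1004-3p, whose 25°C and 29°C levels were close to each other. It was 65.7% for miR-1017-3p, 72.9% for miR-1011-3p, 39.8% for miR-1007-3p and 31.2% for miR-1012-3p, which were in between. For the other four it was close to 0, with 10.0% for miR-1010-5p, 3.22% for miR-1013-3p, -4.46% for miR-1015-3p and -9.76% for miR-1006-5p, so that 18°C and 25°C were close and 29°C was apart. In 7 of the 10 the mean log2 value at 25°C was between those at 18°C and 29°C, and over all miRNAs that differed this was so for 83 of 97. These shares come from fitted means and carry no test.

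Summed over the 24 rows, the value was 33394 ± 2718 at 18°C against 40741 ± 3049 at 25°C and 38933 ± 2305 at 29°C. Without mir-1010 it was 10538 ± 1302, 14304 ± 778 and 14049 ± 1696 in the same order. The sum without mir-1010 was 9522 to 12261 in the 18°C libraries and 13447 to 15178 in those at 25°C, which did not overlap, and 11523 to 15123 in those at 29°C. Within 18°C the ZT21 library was the highest, with 0.388% of its reads from the series against 0.291% to 0.313% in the others. No test was made of these sums.

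The ratio of the 5p to the 3p arm within a library does not depend on how libraries are scaled. It could be tested for the 6 mirtrons with a mean of at least 10 reads of both arms, mir-1003, mir-1004, mir-1006, mir-1010, mir-1012 and mir-1016, in a limma model over 89 hairpins, with a call at an adjusted p under 0.05. Differences are of log2(5p/3p), the first temperature minus the second. Among the 8 mirtrons with both arms listed and at least 10 reads on average over both, 5 had more 3p and 3 had more 5p reads, against 67 and 58 of 125 other hairpins. The 3p arm prevailed for mir-1003, mir-1006, mir-1007, mir-1010 and mir-1016, and the 5p arm for mir-1008 and mir-1012, while mir-1004 had nearly as many reads of one arm as of the other.

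Between 18°C and 29°C the arm ratio differed for 3 of the 6, where it differed for 56.2% of all hairpins tested. The 5p share of mir-1003 was 13%, 9.2%, 12.7% and 7.45% at 18°C, 6.53%, 5.16%, 6.11% and 4.59% at 25°C, and 3.82%, 5.56%, 4.16% and 6.99% at 29°C. The 18°C libraries were all above the rest, and 25°C and 29°C overlapped. The mean log2 ratio was -3.10 ± 0.43 at 18°C against -4.07 ± 0.24 at 25°C and -4.22 ± 0.44 at 29°C. This gave a difference of 1.12, SE 0.24, adjusted p 0.00178 between 18°C and 29°C and of 0.97, SE 0.24, adjusted p 0.0117 between 18°C and 25°C. The 5p arm was the minor one, with 10 to 75 reads per library. Neither arm alone had passed the threshold, as given above.

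The 5p share of mir-1010 was 1.67%, 1.52%, 2.15% and 2.24% at 18°C, 1.76%, 1.58%, 1.32% and 1.53% at 25°C, and 1.03%, 0.919%, 1.27% and 0.937% at 29°C. Here the 29°C libraries were all below the rest, and 18°C and 25°C overlapped. The mean log2 ratio was -5.71 ± 0.28 at 18°C against -6.00 ± 0.17 at 25°C and -6.58 ± 0.22 at 29°C. This gave a difference of 0.87, SE 0.17, adjusted p 0.000975 between 18°C and 29°C and of -0.58, SE 0.17, adjusted p 0.0314 between 29°C and 25°C. The latter call was lost without any one of 6 libraries (ZT3, ZT9 and ZT21 of 25°C and of 29°C), with adjusted p up to 0.0852. Of the 2 arms of this hairpin, the minor 5p arm differed between temperatures and the 3p arm, with most of the reads, did not pass.

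The ratio of mir-1006 moved in another way, with its lowest level at 25°C. The 5p share was 3.33%, 3.13%, 3.24% and 2.99% at 18°C, 1.79%, 1.95%, 1.77% and 2.2% at 25°C, and 4.72%, 5.36%, 3.31% and 6.25% at 29°C. All 25°C libraries were below all others, and 18°C overlapped with 29°C through the 29°C ZT15 library (3.31%). The mean log2 ratio was -4.90 ± 0.07 at 18°C against -5.65 ± 0.15 at 25°C and -4.29 ± 0.42 at 29°C. The difference was 0.75, SE 0.18, adjusted p 0.0117 for 18°C against 25°C. It was 1.36, SE 0.18, adjusted p 0.000221 for 29°C against 25°C, and -0.61, SE 0.18, adjusted p 0.0117 for 18°C against 29°C. The 5p arm had 14 to 71 reads per library.

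The other three mirtrons passed in no comparison. For mir-1012 the 5p share was 82.7%, 81.8%, 86.4% and 83.3% at 18°C, 90%, 86.7%, 87.2% and 83.3% at 25°C, and 88.1%, 86.8%, 87% and 87.9% at 29°C. The 18°C libraries were all below those at 29°C, with a difference of -0.45, SE 0.18, adjusted p 0.051, just over the threshold. It passed without the 18°C ZT15 library (adjusted p 0.0302), without the 25°C ZT3 library (0.0323) and without the 25°C ZT21 library (0.0299). For mir-1004 it was 55.7%, 44.2%, 57.3% and 49% at 18°C, 59.3%, 46.8%, 63.6% and 46.1% at 25°C, and 52.7%, 49.4%, 53.1% and 49.6% at 29°C, with overlap throughout, a difference of 0.02, SE 0.25, adjusted p 0.948 between 18°C and 29°C. For mir-1016 it was 10.5%, 19.6%, 12.9% and 12.4% at 18°C, 17.1%, 10.2%, 12.1% and 12.2% at 25°C, and 11.6%, 14.5%, 9.2% and 21.7% at 29°C, and the difference was -0.02, SE 0.30, adjusted p 0.965. Between 18°C and 25°C, 2 of the 6 differed (mir-1003 and mir-1006), where 24.7% of all hairpins did, and between 29°C and 25°C 2 differed (mir-1006 and mir-1010), where 16.9% did. Outside the test, the 5p arm of mir-1008 made up 99.1% to 100% of its reads in every library, with 0 to 4 reads of the 3p arm.

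**Figure D5:**
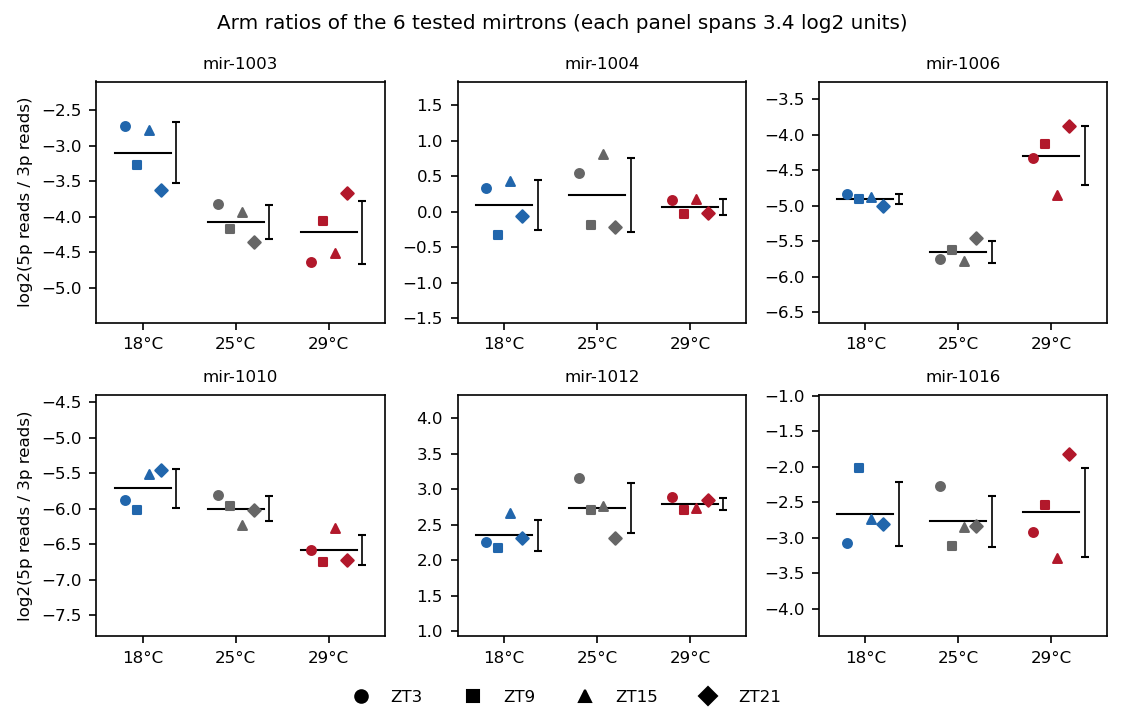
Log2 ratio of 5p to 3p reads of the 6 tested mirtrons by temperature, with 1 point per library and its shape giving the time point; horizontal lines are means and bars ± SD (n = 4), and each panel spans the same number of log2 units. The ratio is highest at 18°C for mir-1003, lowest at 29°C for mir-1010 and lowest at 25°C for mir-1006, while the temperatures overlap for mir-1004 and mir-1016.

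Other intron-filling hairpins were few above the floor. From the 18 such hairpins outside the series, 6 rows passed the filter. Of these, 2 were called for 18°C against 29°C, 1 for 18°C against 25°C, 1 for 29°C against 25°C, all of them lower at the lower temperature. Their median log2 fold change between 18°C and 29°C was -0.89, with 2 rows above and 4 below 0, against -0.32 for the series, with 7 rows above and 12 below 0. Over all 244 miRNAs tested the median was 0.03, with 128 above and 116 below 0. Of the rows of these other hairpins, only 4 had a mean of at least 10 reads. A row with reads at 1 temperature only could pass the filter. In the series, miR-1011-3p is among the 12 below 0 and passed without any 18°C library at the read limit. These counts are a description of small lists, and the splits around 0 are no support for a shared direction.

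Time of day was tested over the 4 time points with temperature as a covariate, with 3 libraries per time point. None of the 19 mirtron rows differed (0 of 252 miRNAs tested in limma), and 2 had an unadjusted p under 0.05, miR-1008-5p (0.018) and miR-1004-3p (0.0226), where 4.76% of all miRNAs did. Without the 18°C ZT21 library, 3 mirtron rows passed, miR-1003-3p (adjusted p 0.0392), miR-1006-3p (0.0481) and miR-1008-5p (0.02), among 28 of the 252. Between dark (ZT15 and ZT21) and light (ZT3 and ZT9), 0 of the 19 differed, 0 also at an unadjusted p under 0.05, where 5 of 235 miRNAs (2.13%) did so.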

How the data were processed

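Small RNAs bound to AGO1 in fly heads were sequenced in 12 libraries, 4 per temperature and 1 per time point, grouped by the labels. The authors assigned reads to mature miRNAs of miRBase release 21 with miRExpress and deposited a signal, the reads of each row divided by one size factor per library. Version, trimming and read length limits were not given in the sources used here. Reads were recovered from the step of the values in each library: 100% of 4896 values were whole within 0.01. Of 408 rows, 5 repeats were dropped. Reads carry no molecular identifiers.

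Differences were tested with limma 3.58.1 (R 4.3.3) on log2(value + 1), with trend and robust estimation, in one model of 3 temperatures over 12 libraries, for the 244 rows passing filterByExpr (minimum count 10). Fold changes on this scale understate changes of rows with few reads. For arm ratios, 0.5 was added to the reads of each arm before the log2 ratio was taken. edgeR 4.0.16 on the recovered reads called 38, 12 and 9 of the 244 miRNAs (18°C against 29°C, 18°C against 25°C, 29°C against 25°C) and DESeq2 1.42.0 called 36, 8 and 9, and the mirtron rows called were those of limma. Every row of the series is described, those with a mean of at least 10 reads with all values and the others by their reads. Intron-filling meant both hairpin ends within 5 bases of the ends of one intron. Alternatives were other pseudocounts, filters, scaling, a block and leaving out each library. Time points were checked for pairing by the correlation of deviations from the temperature means. At the same time point it was 0.23 to 0.44 in the 4 pairs of 25°C with 29°C, and -0.46 to 0.063 in pairs with 18°C. Libraries of different time points reached 0.64 (18°C ZT3 with 25°C ZT9). Only 1 library had its best partner at the same time point. Pairing by time point was thus not established, and the main model was unpaired. No source says that libraries came from separate cultures, so p-values measure the spread between these libraries, time of day included. Scripts were tested on simulated data. The rule for the members used hairpin numbers only, but the members and lists were chosen with earlier results of these data known. Sequence features of the mature arms were not analysed here.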

Additional observations from a re-analysis of the deposited data

Results flagged for a closer look

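Of 78 groups of 4 libraries examined, 2 held 1 library far away from the rest of its group, where chance gives about 1 in 20, or 3.9 groups. The value of miR-1004-3p in the 29°C ZT9 library was 1911 (1355 reads), and the other 29°C libraries had 1546 to 1574. The value of miR-1012-3p in the 18°C ZT21 library was 500.0 (704 reads), and the other 18°C libraries had 316 to 340.0. That library also had the highest share of reads from the series at 18°C (0.388%).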

How the results depend on the processing

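Counts of mirtron rows called moved with the settings that bear on low reads. With a pseudocount of 10, or a required mean of 100 reads, 0 rows were called for 18°C against 29°C and 0 for 29°C against 25°C. Calls over all miRNAs fell too, to 26 and 2 of 244 with the pseudocount of 10. With the required mean of 100 reads they were 18 and 1 of 162. With the adjusted p alone the counts were 10, 3 and 4 (18°C against 29°C, 18°C against 25°C, 29°C against 25°C), where 97, 48 and 29 of all 244 miRNAs differed. When each arm needed a mean of 50 reads, 0 arm ratios differed for 18°C against 25°C and 1 for 29°C against 25°C, since mir-1003 and mir-1006 were then not tested. Leaving out 1 library at a time gave 1 to 2 rows called for 29°C against 25°C, 2 to 4 for 18°C against 29°C, 1 to 2 arm ratios for 29°C against 25°C, and 0 to 3 rows over the 4 time points. Direction turned only under leaving out 1 library, for 3 differences between 18°C and 29°C that were not called, all close to 0. The log2 fold change of miR-1008-5p, with a range from -0.079 to 0.20, was -0.079 without the ZT15 library of 18°C and -0.070 and -0.077 without the ZT9 or the ZT21 library of 29°C. The difference of the arm ratio of mir-1004, with a range from -0.088 to 0.16, was -0.057 and -0.088 without ZT3 or ZT15 of 18°C and -0.012 and -0.0082 without ZT9 or ZT21 of 29°C. That of mir-1016, with a range from -0.23 to 0.25, was 0.12, 0.0084 and 0.032 without ZT3, ZT15 or ZT21 of 18°C and 0.016 and 0.25 without ZT9 or ZT21 of 29°C. With a pseudocount of 10 the log2 fold changes between 18°C and 29°C were -0.85 for miR-1007-3p, -0.63 for miR-1011-3p and -0.87 for miR-1015-3p.

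Pairing by time point was not established, and libraries of the same time point were least alike in pairs with 18°C. A fit with a replicate block for the time point called 3 rows for 18°C against 29°C, 0 for 18°C against 25°C and 1 for 29°C against 25°C, where miR-1015-3p had an adjusted p of 0.0574. Over all 244 miRNAs that fit called 39, 10 and 7 in the same order. With the block over the 8 libraries of 25°C and 29°C alone, chosen after seeing the data, 2 rows were called and 2 arm ratios differed between them, as without it. In that fit 8 of all 244 miRNAs were called, and the arm ratio differed for 13 of all 89 hairpins. The block changed no other call of a mirtron arm or arm ratio. All other settings tried kept the counts of calls within 1.5 times and the direction of the differences. Depth limits the 6 near-floor rows most, and the 29°C ZT21 library, where 3 reads stand for a value of 7.65, limits every arm with few reads.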

Other observations

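A further pattern in the arm ratio of mir-1004 was noticed after the values were seen. At each temperature its 5p share was lower at ZT9 and ZT21 than at ZT3 and ZT15. At 18°C it was 44.2% and 48.98% (ZT9 and ZT21) against 55.7% and 57.3% (ZT3 and ZT15). The corresponding shares at 25°C were 46.8% and 46.1% against 59.3% and 63.6%, and those at 29°C were 49.4% and 49.6% against 52.7% and 53.1%. The pairing of ZT9 with ZT21 is neither a split into light and dark nor one the design gives, and the pattern was not tested.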
